A study of Mus musculus with 2 samples.

Results

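Interferon-induced genes were examined in satellite cells, the stem cells of skeletal muscle, before and after injury. The 8 genes Ifitm2, Ifitm3, Ifi27l2a, Isg15, Ifit1, Ifit3, Irf7 and Bst2 were taken by their symbols from the 32285 features of both matrices, and all 8 were present. QSC was a library of quiescent satellite cells sorted from uninjured tibialis anterior (TA) muscle, and ASC a library of activated satellite cells sorted from TA muscle 1.5 days after injection of cardiotoxin (CTX), a toxin that destroys muscle fibres. Both came from 8-week-old mice of the genotype Pax7 CreERT2/+ ;Rosa26 mTmG/+, in which a tamoxifen-inducible Cre driven by the Pax7 locus switches a membrane reporter in satellite cells and their progeny. Each library was made from cells pooled from several mice. With 1 library per group, no difference below has a replicate check, no test was possible, and every 95% interval covers counting error only.

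Interferons are secreted when a cell senses viral nucleic acid or when immune cells are activated. Type I interferons bind the Ifnar1/Ifnar2 receptor, whose kinases activate transcription factors that bind a DNA motif named the interferon-stimulated response element (ISRE) and switch on interferon-induced genes. Interferon gamma, made mainly by lymphocytes, acts through Ifngr1/Ifngr2 and another motif. Ifitm2 and Ifitm3 encode membrane proteins that hinder virus entry and that many cells make without interferon, and Bst2 (tetherin) holds budding virus at the cell surface. Ifit1 and Ifit3 encode proteins that recognise foreign RNA. Isg15 encodes a ubiquitin-like modifier, and Ifi27l2a a small hydrophobic protein. Irf7 is the transcription factor that amplifies type I interferon production.

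The promoter is where interferon signalling acts on these genes, so the stretches that hold the ISRE are shown. RefSeq (GRCm38.p6) gave a promoter, 250 bases before to 50 bases after the gene's start, for 7 of the 8 genes, and Ifi27l2a had no entry. The ISRE core was searched as GAAANNGAAA on both strands. It was found in 6 of the 7 windows, against 1131 of the 32851 windows of the same 300 bases in the table (3.44%). The 180 bases before the start of 5 genes follow, 5′ to 3′ on the gene's strand, with every match in capitals (overlapping matches run together).

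Isg15, chr4:156200819-156200998, minus strand: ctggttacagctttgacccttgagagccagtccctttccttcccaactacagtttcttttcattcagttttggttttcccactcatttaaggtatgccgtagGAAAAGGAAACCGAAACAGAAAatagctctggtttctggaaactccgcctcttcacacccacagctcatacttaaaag

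Ifit1, chr19:34640709-34640888, plus strand: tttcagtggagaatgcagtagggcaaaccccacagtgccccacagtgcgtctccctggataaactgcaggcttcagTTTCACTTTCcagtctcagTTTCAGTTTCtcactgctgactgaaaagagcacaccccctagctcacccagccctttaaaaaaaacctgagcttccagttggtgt

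Ifit3, chr19:34583349-34583528, plus strand: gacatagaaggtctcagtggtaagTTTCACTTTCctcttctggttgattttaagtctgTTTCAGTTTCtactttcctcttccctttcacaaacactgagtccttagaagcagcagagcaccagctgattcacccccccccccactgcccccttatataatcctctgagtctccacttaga

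Bst2, chr8:71537473-71537652, minus strand: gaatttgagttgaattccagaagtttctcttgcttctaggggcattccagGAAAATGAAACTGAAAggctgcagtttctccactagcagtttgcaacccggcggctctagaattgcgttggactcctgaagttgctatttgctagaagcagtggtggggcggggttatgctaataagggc

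Ifitm2, chr7:140955962-140956141, minus strand: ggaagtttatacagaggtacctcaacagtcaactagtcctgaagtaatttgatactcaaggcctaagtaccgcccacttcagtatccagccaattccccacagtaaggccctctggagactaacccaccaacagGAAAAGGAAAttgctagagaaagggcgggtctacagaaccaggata

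Isg15 held 3 overlapping matches starting 78, 72 and 66 bases before its start. Ifit1 held 2 matches, and Ifit3 2 matches, all read on the opposite strand. Bst2 held 2 overlapping matches and Ifitm2 held 1. Ifitm3 held 2 matches, but just after its start rather than before it. The window of Irf7 held no match to these letters. The interferon gamma motif TTCNNNGAA was found in 2 of the 7 windows (Ifitm3 and Bst2), against 8.30% of all windows. A match is a description of the letters, and binding was not measured.

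A unique molecular identifier (UMI) marks 1 captured transcript. Barcodes with fewer than 500 genes, or with over 10% of their UMIs from mitochondrial genes, were left out. This left 516 of 766 QSC barcodes with 1162091 UMIs, and 1468 of 1650 ASC barcodes with 8895815 UMIs. The median depth was 2155 UMIs in QSC and 3502 in ASC, and the median mitochondrial share was 4.44% and 0.297%. Of the barcode sequences, 4 were shared by both libraries as deposited and 2 after filtering. Both libraries went against a single cell type. Many barcodes took at least 5% of their UMIs from 10 muscle fibre genes such as Acta1 and Ckm and are called contractile-high (104 QSC, 938 ASC). Others fell in clusters led by markers of macrophages or monocytes (16 QSC, 84 ASC), neutrophils (21 ASC), fibroblasts (17 QSC, 1 ASC) or endothelium (10 QSC, 5 ASC). A barcode of these clusters with at least 5% fibre UMIs was called contractile-high instead. In ASC the whole macrophage or monocyte cluster held 85 barcodes and the whole neutrophil cluster 24, so contractile-high includes a few of them. The remaining barcodes, here contractile-low, were 369 in QSC and 419 in ASC. The clusters were built without the interferon genes. QSC contractile-low barcodes lay mostly in cluster 2 (240 barcodes, led by Fosb, Chodl and Myf5), and those of ASC in cluster 1 (239), cluster 5 (101) and cluster 10 (45). Different clusters thus hold the class in the 2 libraries.

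Levels are UMIs of a gene per 1000000 UMIs of the group (CPM), summed over its barcodes. A gene was counted as higher or lower when it had at least 20 UMIs over both groups and a ratio past 2-fold, with 0.5 added to each count. Of the 8 genes, 6 were at least 2-fold higher in ASC than in QSC: Ifi27l2a, Isg15, Ifit1, Ifit3, Irf7 and Bst2. None was at least 2-fold lower. Of 11189 genes tested, 15.8% were at least 2-fold higher and 23.8% lower, and the median log2 ratio was -0.13, against 2.53 for the 8 genes. The choice of the genes was made with such results known, so this contrast is a description.

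Ifi27l2a was at 55.9 CPM in QSC (65 UMIs) and 386 in ASC (3431 UMIs), a 6.90-fold difference (log2 2.79, 95% interval 2.43 to 3.16). Isg15 was at 6.88 CPM in QSC (8 UMIs) and 52.8 in ASC (470 UMIs), 7.67-fold. Bst2 was at 24.1 CPM in QSC (28 UMIs) and 120 in ASC (1069 UMIs), 4.99-fold. These 3 genes were scarce in QSC but counted well enough for an interval that stays above 2-fold in each, on the log2 scale 1.95 to 4.16 for Isg15 and 1.78 to 2.91 for Bst2. Irf7 had 4 UMIs in QSC (3.44 CPM) and 394 in ASC (44.3 CPM), a log2 ratio of 3.69 (2.32 to 5.57). Ifit1 had 2 UMIs in QSC and 192 in ASC (21.6 CPM), with a log2 ratio of 3.65 (1.78 to 6.70). Ifit3 had 2 and 85 UMIs (9.56 CPM in ASC), with a log2 ratio of 2.47 (0.58 to 5.54). In these last 3 the QSC level rests on at most 4 UMIs, so the ratio is known only to within a wide range.

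The 2 Ifitm genes stood apart from the other 6. Ifitm3 was at 824 CPM in QSC (958 UMIs) and 1201 in ASC (10682 UMIs), a log2 ratio of 0.54 (0.45 to 0.64). Ifitm2 was at 555 CPM in QSC (645 UMIs) and 335 in ASC (2982 UMIs), a log2 ratio of -0.73 (-0.85 to -0.60). Both were thus already abundant before injury, and they pointed in opposite directions. The median gene with at least 20 UMIs in each library was itself at a log2 ratio of -0.24, and relative to it Ifitm3 was at 0.78 and Ifitm2 at -0.49. With the mitochondrial limit of the study, 1%, which kept 86 QSC and 948 ASC barcodes, the direction of Ifitm2 turned (log2 1.18), Ifit1 was at 0.41 and Ifit3 at -0.78, with 0.5 added to each count. Of those 86 QSC barcodes, 85 were contractile-high, a class in which Ifit1 and Ifit3 had 0 UMIs in QSC. The direction of Ifit1 and Ifit3 is thus not known at that limit.

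**Figure D1:**
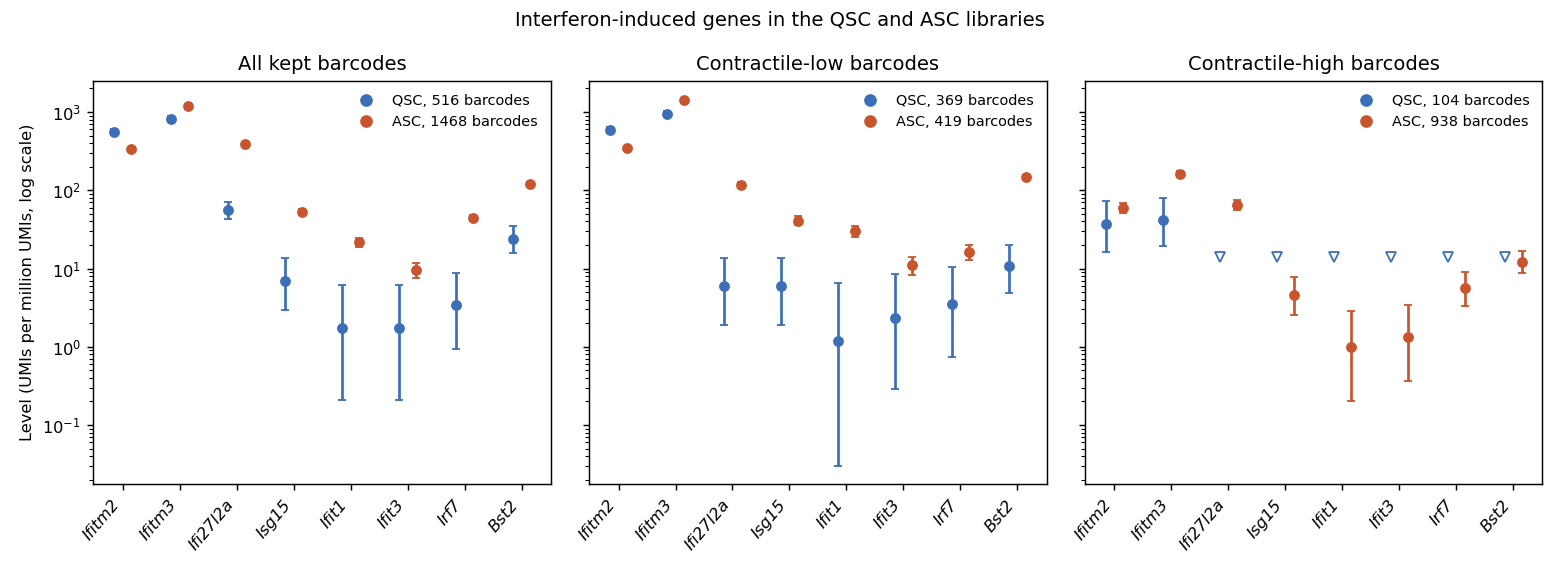
Level of each gene (CPM, log axis) in QSC (blue) and ASC (orange) for all kept, contractile-low and contractile-high barcodes. Points are the summed level of 1 library with an exact Poisson 95% interval, and open triangles mark genes with 0 UMIs, drawn at the level of 3 UMIs. In the first 2 panels Ifitm2 and Ifitm3 are high in both libraries, and the other 6 genes are higher in ASC.

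Next, the libraries were compared within contractile-low barcodes, which leaves out the clusters named for immune cells and the barcodes rich in fibre RNA. The same 6 genes were at least 2-fold higher in ASC and none was 2-fold lower, against 18.3% higher and 23.3% lower of 9966 genes tested. The median log2 ratio was 2.31 for the 8 genes and -0.11 over all genes tested. Bst2 was at 10.6 CPM in QSC (9 UMIs) and 145 in ASC (769 UMIs), 13.7-fold (log2 3.77, 2.84 to 4.91). Ifi27l2a was at 5.91 CPM (5 UMIs) and 118 CPM (624 UMIs), a log2 ratio of 4.32 (3.09 to 5.95). For both genes the ratio was larger than over all barcodes. In QSC, 73.8% of the QSC UMIs of Ifi27l2a and 35.7% of those of Bst2 were in the 16 macrophage/monocyte-like barcodes. Isg15 was at 5.91 CPM (5 UMIs) and 41.1 CPM (217 UMIs), with a log2 ratio of 2.80 (1.55 to 4.43). Ifit1 had 1 UMI in QSC and 158 in ASC (29.9 CPM), with a log2 ratio of 4.66 (2.16 to 9.97). Ifit3 had 2 and 58 UMIs, and Irf7 3 and 85 UMIs, with log2 ratios of 2.21 (0.30 to 5.29) and 2.18 (0.58 to 4.49). Ifitm3 was at 947 CPM in QSC and 1417 in ASC, and Ifitm2 at 590 and 349. Across single barcodes, the median Ifitm3 level was 740 CPM in QSC (lowest 0, highest 5533) and 1461 in ASC (lowest 0, highest 7405). For Bst2 it was 0 in QSC (highest 740) and 88.6 in ASC (highest 1737), and it was 0 in both libraries for Ifi27l2a, Isg15, Ifit1, Ifit3 and Irf7. The median depth of these barcodes was 2222 UMIs in QSC and 8384 in ASC. The median level of a scarce gene such as Bst2 depends on depth, and shares at equal depth are given below.

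**Figure D2:**
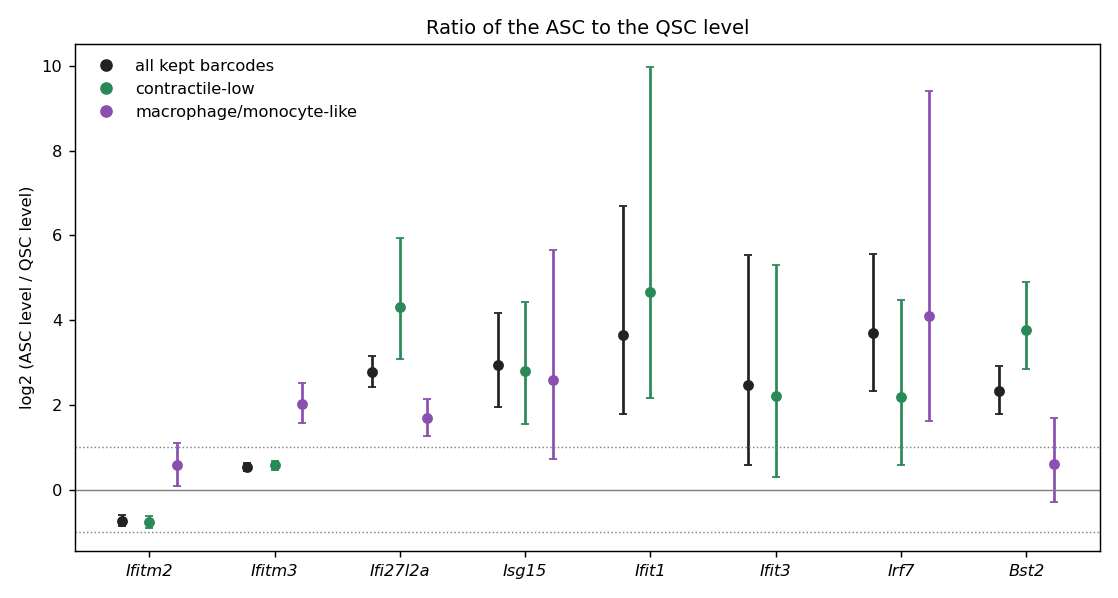
The log2 ratio of the ASC to the QSC level of each gene in all kept barcodes (black), contractile-low barcodes (green) and macrophage/monocyte-like barcodes (purple), with 95% intervals for counting error. Dotted lines mark 2-fold. Ifitm2 lies below 0 in the first 2 groups, and the purple points of Ifit1 and Ifit3 are left out because QSC had 0 UMIs there.

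Macrophage RNA moved with this comparison. The 10 macrophage or monocyte markers summed to 65.0 CPM in QSC contractile-low barcodes (6 of 10 markers with a UMI; Adgre1, Plac8, Ly6c2 and Ccr2 at 0) and to 116 CPM in ASC (10 of 10). When every barcode with a UMI of any of these markers was left out, an alternative chosen after seeing the data, 317 QSC and 167 ASC contractile-low barcodes remained. There the count was 7 of 8, as Ifitm3 passed 2-fold as well (log2 1.04, with 0.5 added to each count), and none was lower, against 11.1% higher and 17.3% lower of 6820 genes tested. Ifi27l2a was at 4.64 (4.18 with those barcodes), Ifit3 at 3.32 (1.90) and Bst2 at 3.66 (3.70). Before this step the class held 369 QSC and 419 ASC barcodes, with median depths of 2222 and 8384 UMIs. A deeper barcode is more likely to hold a marker UMI. In ASC, Lyz2 had 178 UMIs in cluster 5 of this class and 81 in cluster 1, clusters described below. The step may thus also have changed the depth and the mix of clusters, and their part was not tested. Markers of red cells went from 131 CPM in QSC to 1683 in ASC, those of smooth muscle or pericytes from 362 to 1250 and those of tenocytes from 5.91 to 48.1, while fibroblast markers went from 4113 to 964. The part of these cell types in the result was not tested.

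Within ASC contractile-low barcodes the genes were not spread evenly. Cluster 1 is unnamed: its leading genes were Bgn, C1qtnf3 and Acta2, and its ASC barcodes held Des (1693 CPM) and Myod1 (451 CPM), the myogenic regulator. Cluster 5 is led by replication genes such as Rrm2 and Mcm3, and its ASC barcodes held Des (1060 CPM) and Myod1 (390 CPM). Cluster 10 is led by Cdkn1c, Myog and Mymk, genes of differentiating myoblasts. Ifit1 was at 70.9 CPM in cluster 1 (130 UMIs), 4.30 in cluster 5 (11 UMIs) and 13.3 in cluster 10 (8 UMIs). Isg15 was at 83.5, 14.8 and 16.7 CPM in the same order, and Irf7 at 33.3, 7.03 and 3.34 CPM. Cluster 1 was thus the highest of the 3 for these genes, and its intervals do not overlap those of the others. Ifit3 was at 28.4 CPM in cluster 1 against 1.56 in cluster 5, and Ifi27l2a at 226 against 47.3. Cluster 1 over cluster 5, the log2 ratio was 4.05 for Ifit1 (3.16 to 5.08), 2.49 for Isg15 (1.97 to 3.04) and 2.26 for Ifi27l2a (1.96 to 2.56), but 0.61 for Bst2 (0.38 to 0.84) and 0.89 for Ifitm3 (0.82 to 0.96). Bst2 and the Ifitm genes thus differed less between these clusters, Bst2 being at 185 CPM in cluster 1 and 121 in cluster 5. Barcodes of cluster 5 were deeper, with a median of 28408 UMIs against 5721 in cluster 1.

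Without cluster 1, an alternative chosen after seeing the data, 351 QSC and 180 ASC contractile-low barcodes remained, and the count of genes at least 2-fold higher was 4 of 8 (Ifi27l2a, Isg15, Ifit1 and Bst2), against 21.0% higher and 25.2% lower of 9026 genes tested. With 0.5 added to each count, Irf7 was then at a log2 ratio of 0.69, Ifit3 at -0.73 and Ifitm2, at -1.16, was past 2-fold lower. The value of Ifit3 rests on few UMIs, since 52 of its 58 ASC UMIs were in cluster 1. Cluster 5 held enough barcodes of both libraries for a comparison within it (66 QSC, 101 ASC), but these were not matched. Over the whole cluster the median depth was 1756 UMIs in QSC (69 barcodes) and 18451 in ASC (144 barcodes). Pax7 was at 159 CPM in QSC and 11.2 in ASC, and Myod1 at 95.2 and 390. In the contractile-low barcodes of cluster 5 Bst2 was at 8.14 CPM in QSC (1 UMI) and 121 in ASC (311 UMIs), with a log2 ratio of 3.90 (1.41 to 9.21). Ifi27l2a had 0 UMIs in QSC and 121 in ASC, at least 1.93-fold higher when QSC is set to the floor of 3 UMIs. Ifitm2 was at 489 and 274 CPM (log2 -0.84, -1.22 to -0.43) and Ifitm3 at 847 and 1122 (log2 0.41, 0.12 to 0.70). Isg15 was at 8.14 and 14.8 CPM (1 and 38 UMIs), with a log2 ratio of 0.87 and an interval that includes 0 (-1.70 to 6.21). Ifit1, Ifit3 and Irf7 were at 0 UMIs in QSC, and no fold can be given at this depth.

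**Figure D3:**
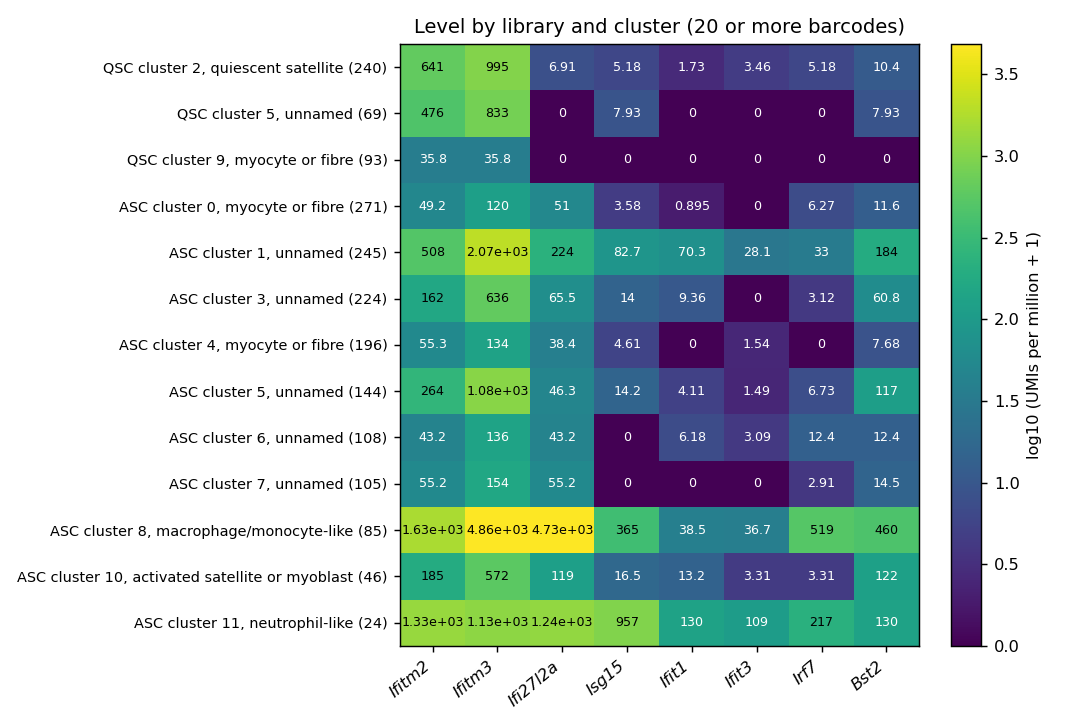
Level of each gene (columns) in each library and cluster with at least 20 barcodes (rows, number of barcodes in parentheses). Colour is log10 (CPM + 1) and the number in each cell is CPM. Outside the macrophage/monocyte-like and neutrophil-like clusters, cluster 1 is the highest of the ASC clusters shown for all 8 genes.

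Contractile-high barcodes carried little of any of the 8 genes. They held 33.9% of all ASC UMIs but between 1.56% (Ifit1) and 6.07% (Ifitm2) of each gene's ASC UMIs. Ifitm3 had 9 UMIs in QSC and 485 in ASC (161 CPM), 3.83-fold (log2 1.94, upper limit 3.08). Ifitm2 was at 37.3 and 60.0 CPM, with an interval on the log2 ratio of -0.32 to 1.92. Ifi27l2a, Isg15, Ifit1, Ifit3, Irf7 and Bst2 had 0 UMIs in the 104 QSC barcodes, where 3 UMIs would be 14.0 CPM. Against that floor Ifi27l2a (197 UMIs in ASC, 65.3 CPM) was at least 4.67-fold higher in ASC. A single ASC barcode held 49 of these Ifi27l2a UMIs, and a single one 51 of the Ifitm3 UMIs. The whole macrophage/monocyte-like cluster held 2580 Ifi27l2a UMIs in ASC, and the class of that name 2531. For Ifitm3 these were 2651 and 2600. Part of the contractile-high UMIs thus came from that cluster, and the ratios above include them. Bst2 (37 UMIs, 12.3 CPM) and the other 4 genes were under the floor, so their ratio is not known. With 0.5 added to each count, 3 of the 4 genes with 20 UMIs were past 2-fold higher (Ifitm3, Ifi27l2a and Bst2) and none lower, against 20.8% and 10.9% of 6354 genes tested, but Bst2 is counted only through the added 0.5. The median log2 ratio was 2.14 over those 4 genes and -0.19 over 7 genes with those at 0 set to the floor, and 0.13 over all genes tested. Macrophage markers summed to 69.9 CPM in QSC and 253 CPM in ASC in this class.

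Of the 4 ASC classes with at least 20 barcodes, each gene was highest in the macrophage/monocyte-like or the neutrophil-like class. The 5 endothelial-like ASC barcodes were above both for Bst2 (658 CPM, 9 UMIs) and Ifit1 (219 CPM, 3 UMIs). In the 84 macrophage/monocyte-like ASC barcodes Ifi27l2a was at 4740 CPM (2531 UMIs), 40.1-fold above ASC contractile-low barcodes (log2 5.33, 5.20 to 5.46). Irf7 was at 528 CPM against 16.1 CPM, 32.8-fold (log2 5.04, 4.68 to 5.40). These barcodes were 5.72% of the ASC barcodes yet held 73.8% of the Ifi27l2a and 71.6% of the Irf7 UMIs. Ifit1 was the exception. It was at 39.3 CPM (21 UMIs) in macrophage/monocyte-like and 29.9 CPM in contractile-low barcodes, a log2 ratio of 0.40 with an interval of -0.34 to 1.06, and contractile-low barcodes held 82.3% of its ASC UMIs. The other 7 genes were at least 2-fold higher in macrophage/monocyte-like barcodes and none lower, against 16.5% higher and 31.5% lower of 9897 genes tested. The 21 neutrophil-like barcodes held Isg15 at 1010 CPM (39 UMIs, 718 to 1381), above the 369 CPM of the macrophage/monocyte-like class (319 to 424).

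Macrophage/monocyte-like cells of QSC (16 barcodes, 32671 UMIs) and ASC (84 barcodes, 533942 UMIs) could also be set against each other, but their markers differed. In the cluster of this class C1qa was at 4346 CPM in QSC and 125 in ASC, and Csf1r at 979 and 171. Lyz2 was at 8478 and 11073 and Cd68 at 306 and 495, while Plac8 and Ly6c2 had 0 UMIs in QSC. The 2 sets may thus hold different kinds of cell, and the part of this in the ratios was not tested. With 0.5 added to each count, 6 of 8 genes were at least 2-fold higher in ASC and none lower, against 26.8% and 16.9% of 3211 genes tested. Ifitm3 was at 1194 CPM in QSC and 4869 in ASC (log2 2.03, 1.57 to 2.52), and Ifi27l2a at 1469 and 4740 (log2 1.69, 1.28 to 2.13). Irf7 rested on 1 QSC UMI against 282 (log2 4.11, 1.62 to 9.42). Isg15 had 2 and 197 UMIs (log2 2.59, 0.72 to 5.65). Ifit1 and Ifit3 had 0 QSC UMIs, and their ASC levels lie under the level of 3 QSC UMIs, so 2 of the 6 are not supported by a bound. With these set to the floor the median log2 ratio was 1.12 in place of 1.54, against 0.10 over all genes tested. Bst2, at 306 and 466 CPM, had an interval that includes 0 (-0.30 to 1.69).

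The 8 genes were also counted per UMI of Lyz2, an abundant macrophage lysozyme gene, in each ASC class. Ifit1 was at 0.00352 UMIs per Lyz2 UMI in macrophage/monocyte-like barcodes (0.00218 to 0.00538) and at 1.60 in contractile-low barcodes of cluster 1 (1.21 to 2.15). Isg15 was at 0.0330 and 1.89, and Ifi27l2a at 0.424 and 5.11. In cluster 5 the values lay between these for all 8 genes, with 0.680 for Ifi27l2a (0.535 to 0.861) and 0.101 for Irf7 (0.0586 to 0.164), against 0.424 and 0.0472 in macrophage/monocyte-like barcodes. For Bst2 cluster 5 was at 1.75 against 0.0417, for Ifitm3 at 16.1 against 0.435, for Isg15 at 0.213 against 0.0330 and for Ifit1 at 0.0618 against 0.00352. In contractile-high barcodes Isg15 was at 0.0504 (0.0272 to 0.0859) and Irf7 at 0.0612 (0.0351 to 0.0997), against 0.0330 (0.0285 to 0.0380) and 0.0472 (0.0418 to 0.0532) in macrophage/monocyte-like barcodes. The contractile-high class includes a few barcodes of the macrophage/monocyte-like and neutrophil-like clusters. In ASC the former cluster held 6038 Lyz2 UMIs and its class 5971. The latter held 44 Isg15 UMIs and its class 39. The contractile-high ratios thus include UMIs of immune clusters. The source of the UMIs in this paragraph was not tested.

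**Figure D4:**
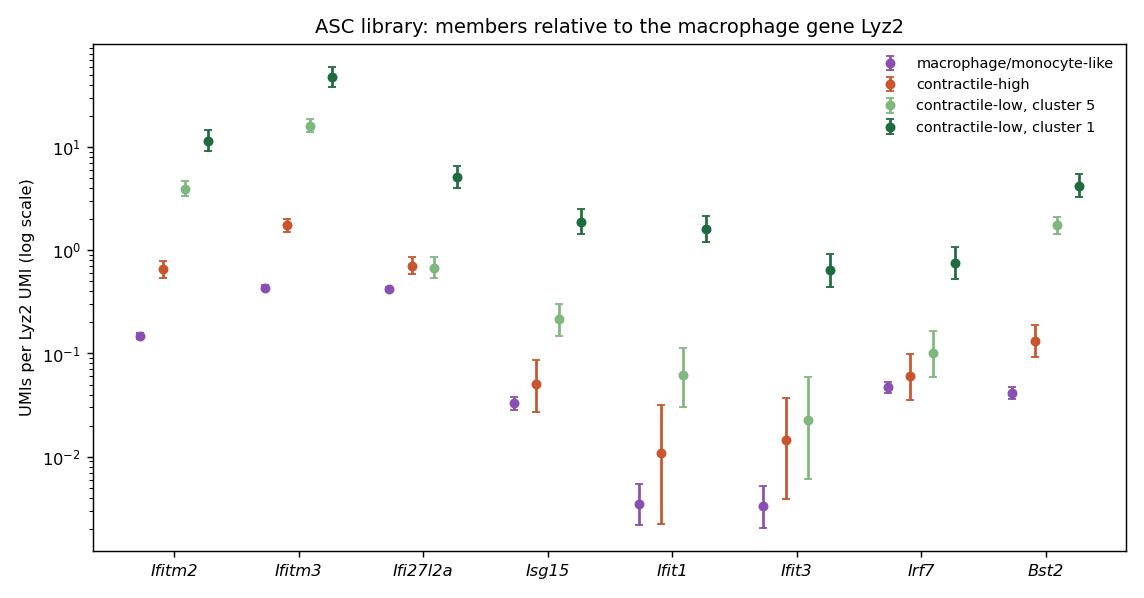
UMIs of each gene per Lyz2 UMI (log axis) in 4 groups of ASC barcodes, with 95% intervals for counting error. Cluster 1 lies above the macrophage/monocyte-like ratio for all 8 genes. Contractile-high barcodes, which include a few of the immune clusters, overlap that ratio for Isg15, Ifit1, Ifit3 and Irf7.

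Whether the induced genes met in the same barcodes was examined for Isg15, Ifit1, Ifit3 and Irf7. In QSC 0 of 516 barcodes held UMIs of 2 or more of these 4 genes. With 3 counts as the limit for a count of 0, this allows a share of up to 0.581% (exact 95% upper limit 0.712%). In ASC 120 of 1468 barcodes held UMIs of 2 or more (8.17%, 95% interval 6.82 to 9.70). The share was 61.9% in macrophage/monocyte-like (52 of 84), 13.4% in contractile-low (56 of 419) and 0.640% in contractile-high barcodes (6 of 938). Depth differed between these classes, with medians of 6322, 8384 and 2675 UMIs. After thinning every barcode to 1200 UMIs and leaving out 28 QSC and 97 ASC shallower ones, the counts were 0 of 488 in QSC and 29 of 1371 in ASC (2.12%, 1.42 to 3.02). Thinned contractile-low barcodes gave 9 of 412 (2.18%, upper limit 4.11) in ASC and 0 of 366 in QSC, and contractile-high barcodes of ASC 1 of 853 (0.117%).

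**Figure D5:**
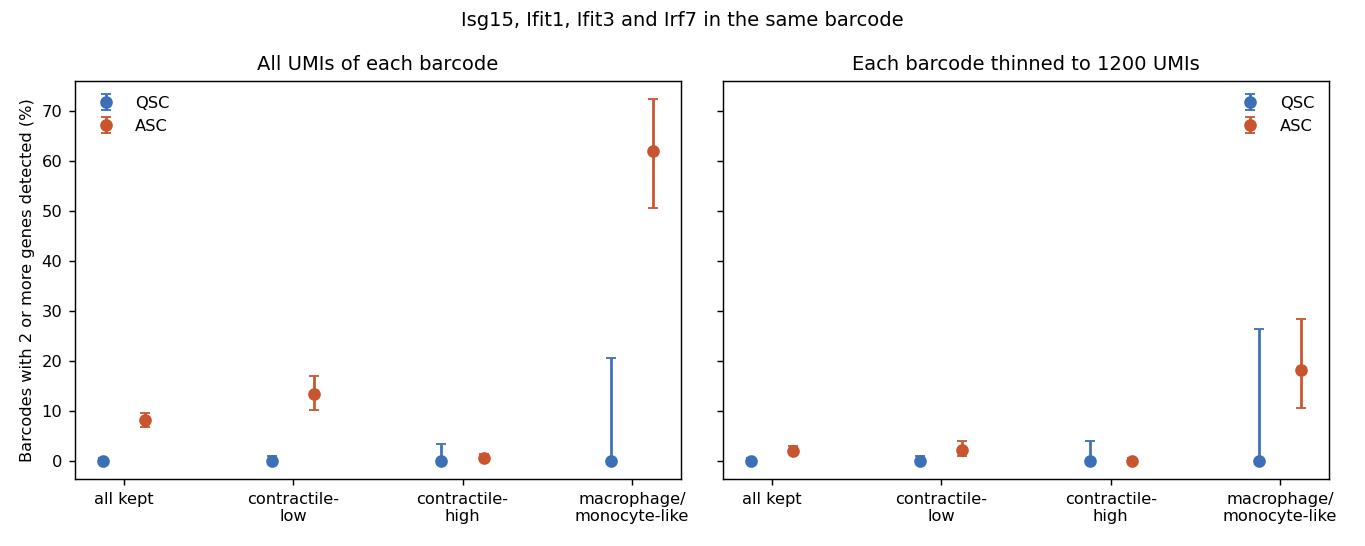
Share of barcodes (%) with UMIs of at least 2 of Isg15, Ifit1, Ifit3 and Irf7 by class in QSC (blue) and ASC (orange), with exact binomial 95% intervals, from all UMIs (left) and after thinning to 1200 UMIs (right). The share is 0 in every QSC class shown and highest in macrophage/monocyte-like ASC barcodes.

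Single genes were read the same way at 1200 UMIs per barcode. In contractile-low barcodes a UMI of Bst2 was found in 1.91% of QSC (7 of 366) and 15.3% of ASC barcodes (63 of 412), against 1.64% of contractile-high ASC barcodes. Unthinned, the contractile-low shares were 2.17% and 59.9%. Ifit1 was found in 0 of 366 and 20 of 412 (4.85%), against 0.117% in contractile-high ASC barcodes, and Isg15 in 0.820% and 6.80%, against 0.234%. The Ifitm3 share was 61.2% in QSC and 77.2% in ASC, and the Ifitm2 share 46.4% and 36.9%. Most contractile-low barcodes of both libraries thus held Ifitm3, and few held Ifit1.

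A few barcodes held much of Ifit1. Of its 192 ASC UMIs, 47 (24.5%) were in 1 barcode of cluster 1, and 53.1% in the top 10 barcodes. That barcode had 23156 UMIs, with 16 UMIs of Myod1 and 34 of Des but 1 of Lyz2. It also held 11 UMIs of Isg15, 39 of Ifitm3 and 3 of Ifit3, 0 of Irf7, and, named after its values were seen, 55 of Cxcl10, a chemokine gene that interferon induces. No other of the 8 genes was so concentrated in 1 ASC barcode: the top barcode held from 0.936% (Ifitm3) to 7.06% (Ifit3) of their UMIs. The top 10 barcodes held 47.1% of the ASC UMIs of Ifit3, 28.2% of Irf7 and 26.2% of Isg15, and less of the rest, down to 6.99% for Ifitm3. Without the highest barcode of each gene in each library, the count stayed at 6 of 8 in all kept and in contractile-low barcodes. This step also removes QSC UMIs. In QSC contractile-low barcodes Ifit1, Ifit3 and Irf7 had 1, 2 and 3 UMIs, with at most 1 per barcode. Ifit1 lost its only UMI there, and its log2 ratio rose from 4.08 to 5.16. For these scarce genes the unchanged count is thus no check on concentration.

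The rest of the pathway was read from lists, whose counts stand against the 15.8% higher and 23.8% lower of all genes. No ligand gene reached 20 UMIs. Ifng, the interferon gamma gene, had 0 UMIs in QSC and 19 in ASC, 18 of them in macrophage/monocyte-like barcodes. That class also held 69 of the 73 ASC UMIs of T or NK cell markers and 46 of the 49 of dendritic cell markers. Ifnb1, the interferon beta gene, had 0 and 2 UMIs, both in that class, and Ifna1 had 0 in both libraries. In contractile-low barcodes Ifng and Ifnb1 had 0 UMIs in both libraries.

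The receptor and signalling genes were not higher in ASC. Of 5 receptor genes with 20 UMIs, 0 were at least 2-fold higher and 1 lower: Ifngr1, at 96.4 CPM in QSC and 32.1 in ASC (log2 -1.58, -1.90 to -1.26). Ifngr2 was at 41.3 and 48.6 CPM, and Ifnar2 at 38.7 and 22.0. Of 6 signal transducers, 0 were higher and 1 lower, the kinase gene Jak1 (93.8 and 41.7 CPM, log2 -1.17). Irf9, a transcription factor of the type I pathway, was at 18.9 and 13.7 CPM. Of 5 other interferon regulatory factors 0 were higher and 2 lower. Irf1 was at 110 CPM in QSC and 16.0 in ASC (log2 -2.79, -3.14 to -2.43) and Irf2 at 51.6 and 19.6, while Irf3 was at 37.0 and 23.0. Irf5 was at 9.47 and 18.1 CPM (log2 0.94, 0.06 to 1.97), named after its values were seen.

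Among 7 nucleic acid sensors 2 were higher and 0 lower. Zbp1, a sensor of Z-form nucleic acid, had 2 UMIs in QSC and 189 in ASC (log2 3.63, 1.75 to 6.68), of which 123 were in macrophage/monocyte-like barcodes. Mavs and Tbk1 were at 12.9 and 13.8 CPM in QSC and at 11.5 and 7.87 in ASC. Of 6 relatives of the 8 genes 5 were higher and 1 lower. Ifi27 was at 130 and 276 CPM (log2 1.09, 0.85 to 1.33), and unlike Ifi27l2a it was highest outside the immune clusters, at 416 CPM in contractile-low against 33.7 in macrophage/monocyte-like ASC barcodes. Ifitm6 had 2 and 306 UMIs, 268 of them in macrophage/monocyte-like barcodes, and Ifitm10 5 and 169 UMIs, 3 of them there. Ifit2, named after its values were seen, is the relative counted as lower, with 8 and 32 UMIs and an interval of -2.08 to 0.39 on the log2 ratio.

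Of 37 other type I interferon-induced genes tested (42 in the list), 15 were at least 2-fold higher and 5 lower, with a median log2 ratio of 0.61 against -0.13 over all genes. Ly6e, a surface protein gene, was at 68.0 CPM in QSC and 287 in ASC (log2 2.08, 1.76 to 2.42), while Shisa5 (40.4 and 69.6) and Ifi35 (23.2 and 34.8) did not pass 2-fold. In contractile-low barcodes 9 of 22 were higher and 2 lower, against 18.3% and 23.3% of all genes. Of 12 interferon gamma GTPases and related genes 3 were higher and 3 lower, close to the shares over all genes. Psmb8 and Psmb10, subunits of the immunoproteasome, were at 21.5 and 37.0 CPM in QSC and at 49.6 and 71.7 in ASC, while Iigp1 had 41 and 187 UMIs (log2 -0.75), but 0.67 in contractile-low barcodes, where 5 of 12 genes were higher and 2 lower. Of 6 negative regulators 2 were higher and 1 lower. Samhd1, an antiviral nucleotide hydrolase gene, had 14 and 349 UMIs (log2 1.70, 0.94 to 2.59), Ptpn2 at 20.7 and 30.1, and Socs3, a cytokine signalling inhibitor, at 1124 and 204 (log2 -2.46, -2.56 to -2.36).

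Genes with the most similar profile were sought over the 13 library-by-cluster groups of at least 20 barcodes, by Pearson's r of log2(CPM + 10) among 4769 genes. The groups share 2 libraries, so r is a description. The closest to Ifitm3 were Myl6 (r = 0.987), H13 and Tpm4, and to Ifitm2 Iqgap1 (0.981), Bcl10 and Unc93b1. The closest to Irf7 were Arhgdib (0.973), Spi1 and Alox5ap, and to Ifi27l2a Cd52 (0.935), Skap2 and Plac8. Isg15 was closest to Cstb (0.960), Sh3bgrl3 and Il1b, and Bst2 to Sept9 (0.945), Aprt and Baz1a. Among the members, Ifitm2 and Ifitm3 (r = 0.928), Ifi27l2a and Irf7 (0.919), and Isg15 and Irf7 (0.915) were the most alike, and Ifi27l2a and Ifitm2 the least (0.589).

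By the GENCODE M21 annotation of GRCm38, all 8 are protein-coding. Ifitm2 (chr7:140954837-140955987), Ifitm3 (chr7:141009586-141010770) and Irf7 (chr7:141262706-141266481) lie on the minus strand of chromosome 7. Ifit3 (chr19:34583531-34588731) and Ifit1 (chr19:34640871-34650009) are neighbours on the plus strand of chromosome 19. Isg15 is at chr4:156199424-156200818, Bst2 at chr8:71534255-71537456 and Ifi27l2a at chr12:103442167-103443680, all on the minus strand. Ifitm2 overlaps Gm45717 on the same strand and Irf7 overlaps Phrf1 on the opposite strand. Stretches of 90 bases in the last 600 bases of the transcripts were searched in all other genes. Of those of Ifitm2, 40.9% occur in Gm45717, Gm8865 or Gm11951, and of those of Ifit3, 5.28% occur in Ifit3b, so the levels of these 2 genes are uncertain. None of those of the other 6 genes was shared.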

How the data were processed

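The QSC and ASC single-cell 3′ libraries were analysed. The authors aligned reads to mm10 and deposited raw UMI counts per gene and barcode. Per the file headers the counts came from Cell Ranger 6.0.2, whereas the submitters' processing notes name Cell Ranger 7.1.0, Seurat 4.1.0 and R 4.1.2. How reads that match several genes were treated is not given in the sources used here. The deposited counts total 1346020 UMIs in QSC and 9059807 in ASC, so 3 counts equal 2.58 CPM in kept QSC and 0.337 CPM in kept ASC barcodes. Barcodes with at least 500 genes and at most 10% mitochondrial UMIs were kept, since the study's limit of 1% keeps few QSC barcodes. Libraries were clustered together with Seurat 5.3.0 (R 4.3.3) by the settings in the study's methods (resolution 0.6, 10 components), leaving 22 interferon genes out of the 1084 variable genes. Clusters were named from fixed markers. The doublet caller Scrublet (scanpy 1.11.5) marked 7 QSC and 3 ASC barcodes, too few to have worked in ASC, and doublets were kept.

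Levels carry exact Poisson, ratios exact conditional binomial, and shares exact Clopper-Pearson 95% intervals (scipy 1.17.1). Genes were named by rule: the 8 members, the 3 genes with most UMIs of each of 9 pathway lists, and the 3 most similar profiles for members with at least 200 UMIs. A gene that this rule names is not reported here. The members, lists, classes and alternatives were chosen with earlier results of these data known. TMM scaling used edgeR 4.0.16 for its factors only. The log2 ratio and its interval were tested on simulated counts with known ratios, and the other steps were not.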

Additional observations from a re-analysis of the deposited data

Results flagged for a closer look

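Barcodes outside the filter held UMIs of the 8 genes above the limit that a count of 0 allows. In QSC, 250 such barcodes with 183929 UMIs held 75 UMIs of the 8 genes (408 CPM, against 1473 CPM in kept barcodes), mostly Ifitm3 (33) and Ifitm2 (30). In ASC, 182 such barcodes with 163992 UMIs held 187 UMIs (1140 CPM, against 2170 CPM in kept barcodes), of which 78 were Ifitm3 and 55 Ifi27l2a. Ifit1 had 0 UMIs in both sets.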

How the results depend on the processing

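No paired analysis was possible because each group has 1 library. Ratios here have 0.5 added to each count. The counts of 6 of 8 genes higher in all kept and in contractile-low barcodes stayed at 6 under other mitochondrial and gene limits. The same held with TMM and median-gene scaling, no minimum, per-barcode means and other fibre limits and clusterings, and without top barcodes or Scrublet calls. Shares over all genes are not given for these settings. The genes were not always the same ones: at the 1% mitochondrial limit Ifitm2 and Ifitm3 entered. That limit left no QSC contractile-low barcode, so it gave no value there. Nearly all QSC barcodes it kept were contractile-high. In that class Ifi27l2a, Isg15, Irf7 and Bst2 had 0 UMIs in QSC at the 10% limit. The added 0.5 may thus decide their calls at the 1% limit, and the 6 found there is no check on the main count. In contractile-high barcodes, dropping the minimum of 20 UMIs gave 5 genes higher in place of 3 and 1 lower in place of 0, the added genes having 0 UMIs in QSC. The higher count was 2 with at least 200 or 1000 genes per barcode and 4 with a fibre limit of 3%, and Bst2 was past 2-fold in none of these 3 alternatives. In alternatives chosen after seeing the data, without barcodes holding a macrophage marker 1 gene (Ifitm2) was lower in all kept barcodes, and without cluster 1, 1 gene (Ifitm2) was lower in contractile-low barcodes, each in place of 0. The log2 ratio of Ifit3 changed sign at the 1% mitochondrial limit (-0.78 in place of 2.16) and without cluster 1 (-0.73 in place of 1.90). Both values rest on few UMIs. Ifit3 had 2 UMIs in kept QSC barcodes, 0 of them in contractile-high ones, and 52 of its 58 UMIs in ASC contractile-low barcodes were in cluster 1. A reversal is thus not shown, and the cause was not tested. In contractile-high barcodes the log2 ratio of Bst2 was -0.049 in place of 2.42 with at least 1000 genes per barcode, which left 10 QSC barcodes. Bst2 had 0 UMIs in QSC there, so both values come from the added 0.5 and give no direction. With at least 100 UMIs per gene, 14 of the other type I interferon-induced genes were tested, and 6 were higher and 0 lower. With at least 20 UMIs these were 15 and 5 of 37. Over all genes at the limit of 100, 1126 were higher and 1135 lower of 6971. Depth limits Ifit1, Ifit3, Irf7 and Isg15, with 2 to 8 UMIs in QSC.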
